A study of Mus musculus with 2 samples.

Results

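The genes described here are 9 genes of tissue macrophages and of complement C1q, measured in the duodenum of adult C57BL/6J mice. They were picked by symbol: C1qa, C1qb, C1qc, Cd68, Csf1r, Adgre1, Cx3cr1, Itgax and Lyz2. All 9 were found among the 43346 gene rows of the tables, and all 9 passed the filter that 15921 genes passed, a count averaging 10 or more over the libraries. The study sequenced polyadenylated RNA of the duodenum, where the small intestine begins, at 8 weeks of age, in 2 libraries that form 1 group. The tissue was pooled from males and females of the same litters, and no allele, agent or sort is named. Both libraries carry 1 donor entry and separate tissue entries, so separate animals are not stated, and every p-value below compares only these 2 libraries, whose differences may be technical. The labels call them biological replicates 1 and 2, and values are given in that order.

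Macrophages of the intestinal wall are largely renewed from blood monocytes. They depend on the receptor CSF1R and its ligands CSF1 and IL34, and many carry the fractalkine receptor CX3CR1 and the integrin CD11c. They engulf dying cells and microbes without strong inflammation. Macrophages are a main source of C1q, the recognition molecule of the classical complement pathway, which binds antibody complexes, dying cells and some microbes. C1q is built from A, B and C chains in equal parts, and it acts with the proteases C1r and C1s.

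Replicate 1 held 44272208 expected counts over genes and replicate 2 held 44710137. Where no fragment was counted, 3 remain possible, or 0.0678 CPM (counts scaled to a common total) in replicate 1 and 0.0671 CPM in replicate 2, for counting error only. The libraries differed widely. The 12 acinar pancreas genes and the 9 genes of stomach and Brunner's glands listed for this report were summed. They took 10.9% of the TPM (a level per transcript length, scaled to a common total) in replicate 1 and 0.131% in replicate 2. Between the libraries, 1830 genes (11.5% of those tested) were called higher in replicate 2 and 2324 (14.6%) higher in replicate 1. A gene was called where an exact two-sided binomial test of its counts, given edgeR's TMM library sizes, had a Benjamini-Hochberg adjusted p under 0.05 and the scaled counts differed at least 2-fold. This test knows only counting error, and 74.9% of genes had an adjusted p under 0.05, so the size of a difference says more than its p. The median log2 ratio of replicate 2 over replicate 1 was −0.04 over all genes tested, with quartiles of −0.50 and 0.44. Scaling to total gene counts or to spike-in counts moves every log2 ratio by −0.24. The calls then number 1263 higher in replicate 2 against 3186 in replicate 1 with total counts, and 1257 against 3208 with spike-ins.

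Of the 9 genes, 4 were called higher in replicate 2 (C1qa, C1qb, Csf1r and Itgax), none was called higher in replicate 1, and 5 were not called. The background for these counts is the 11.5% and 14.6% of all genes. The log2 ratio was above 0 for 8 of the 9, with a median of 0.83 against −0.04 over all genes tested. Cd68 turned below 0 with library sizes from total counts or spike-ins. The adjusted p was under 0.05 for 8 of the 9, all but Cd68, against 74.9% of all genes tested. With library sizes from total gene counts or from spike-ins, 1 of the 9 remained called, Itgax. Over the 15921 genes tested 1263 and 1257 were then called higher in replicate 2. In tissue RNA, fewer cells of a type and less RNA per cell cannot be told apart.

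By TPM the C1q chains were the highest of the 9 genes. C1qa, C1qb and C1qc stand side by side on chromosome 4 of mm10, all on the minus strand, within 18.7 kb. C1qb lies at chr4:136880129-136886187, C1qc at chr4:136889804-136893065 and C1qa at chr4:136895917-136898803. The gaps between them are 3.62 kb and 2.85 kb, and each gene has 3 exons. Reads across introns, deposited as 1 sum over both libraries, were found for every intron of all 3 genes. C1qc had 1570 across its first intron and 357 across its second, C1qb had 326 and 98, and C1qa had 93 and 158. The first intron of C1qc was the most crossed of these 6.

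**Figure D1:**
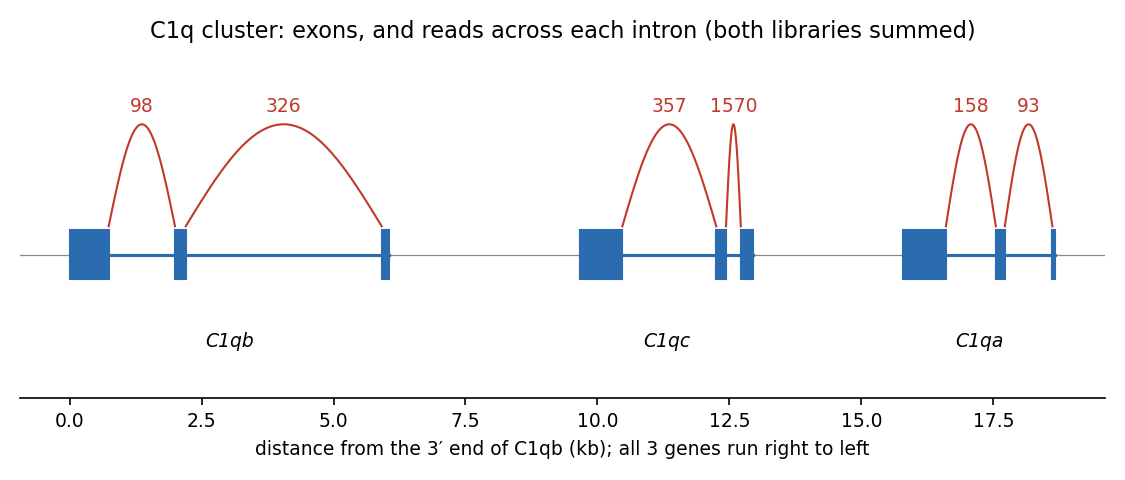
Exons (boxes) of the C1q genes along the cluster, by distance in kb from the 3′ end of C1qb, with the reads across each intron (red, both libraries summed). Each of the 6 introns was crossed by reads, from 93 in C1qa to 1570 in C1qc.

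The stretches before C1qb and C1qc are shown because these neighbouring genes were both higher in replicate 2 and each window holds the hexamer GAGGAA (capitals; in C1qc it is on the opposite strand and reads TTCCTC). That hexamer is a core of sites bound by PU.1, the macrophage transcription factor encoded by Spi1. Both stretches come from RefSeq promoter windows (GRCm38.p6), from 250 bases before to 50 after a gene's start, and are written 5′ to 3′ on the minus strand. They span chr4:136886201-136886300 for C1qb and chr4:136893066-136893164 for C1qc.
C1qb: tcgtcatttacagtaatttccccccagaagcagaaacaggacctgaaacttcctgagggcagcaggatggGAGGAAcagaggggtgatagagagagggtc
C1qc: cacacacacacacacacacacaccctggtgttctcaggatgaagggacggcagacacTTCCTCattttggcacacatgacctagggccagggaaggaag
In C1qb the hexamer begins 43 bases before the gene start in GENCODE, the one given above, and 30 before the RefSeq start. In C1qc it begins 42 bases before the GENCODE start and 193 before the RefSeq start, which lies 151 bases inside the gene as given above. Promoter windows were matched for 6 of the 9 genes (C1qb, C1qc, Cd68, Cx3cr1, Itgax and Lyz2). GAGGAA on either strand was in 3 of these 6 (C1qb, C1qc and Cd68), and in 28.3% of all 32851 windows. TGANTCA, a site of AP-1 factors, was in Cd68 and Itgax and in 7.81% of all windows. An interferon-response element, GAAA and GAAA with any 2 bases between, was in none of the 6 and in 3.44% of all windows, and TATAAA, the TATA box, was in none and in 13.6%. The letters are a description of the windows only.

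C1qc, the C chain (ENSMUSG00000036896.5), had the highest level of the 9 genes, at 72.3 and 117 TPM (94.4 ± 31.3, SD, n = 2). It had 2999 and 4572 counts, and its scaled counts were 1.78-fold higher in replicate 2, with an exact 95% Clopper-Pearson interval of 1.70 to 1.86. The interval lies below 2, so C1qc was not called (adjusted p = 4.75e-135 by the exact binomial test). C1qa, the A chain (ENSMUSG00000036887.5), was at 41.1 and 87.6 TPM (64.4 ± 32.9), from 1432 and 2871 counts. It was called, at 2.34-fold (2.19 to 2.49, adjusted p = 2.57e-161), and 12.2% of all genes tested differed by more. C1qb, the B chain (ENSMUSG00000036905.8), was at 34.8 and 65.8 TPM (50.3 ± 21.9), from 1281 and 2282 counts. It was called at 2.08-fold, but its interval of 1.94 to 2.23 includes the 2-fold limit.

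All 3 chains were higher in replicate 2, and their order was C1qc, C1qa, C1qb in both libraries. The libraries' ranges of neighbours in that order overlap. The chains did not differ by the same factor, since the intervals of C1qa and C1qc do not overlap. A ratio within a library does not depend on library scaling. C1qc made up 48.8% and 43.2% of the summed C1q TPM, C1qa 27.7% and 32.5%, and C1qb 23.5% and 24.4%. The share of C1qb moved least, by less than 1 percentage point, while those of C1qa and C1qc moved in opposite directions. The summed TPM was thus not divided equally among the chains. GC content goes with level across genes here (Spearman's rho of 0.38 between mean TPM and GC over 15758 genes, and 0.56 over these 9 genes with 30 other macrophage genes), and its part in the order of levels was not tested. The log2 ratio between libraries had a rho of 0.18 with GC. These correlations are across genes, which are not independent replicates.

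**Figure D2:**
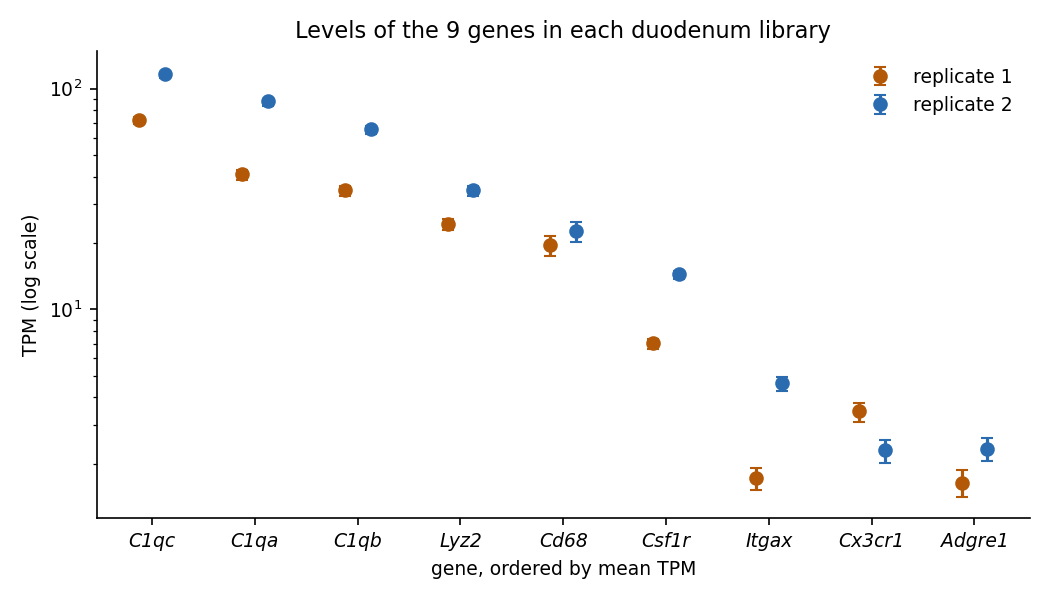
TPM (log scale) of the 9 genes in replicate 1 (orange) and replicate 2 (blue), with the deposited bounds on each TPM as bars, ordered by mean TPM. The C1q chains lie between 34.8 and 117 TPM and are higher in replicate 2, while Cx3cr1 is the 1 gene that is higher in replicate 1.

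By TPM the receptors stood far below the C1q chains. Csf1r, the receptor tyrosine kinase for CSF1 and IL34 that macrophages need to survive (ENSMUSG00000024621.11, chr18:61100598-61132149, plus strand), was at 7.02 and 14.4 TPM (10.7 ± 5.25). Its counts were 1286 and 2539, a 2.30-fold difference (2.15 to 2.47, adjusted p = 9.52e-139 by the exact binomial test), and it was called. C1qb had 1281 and 2282 counts, so by counts Csf1r was no lower. The length used in replicate 1 was 4666 bases for Csf1r and 1088 for C1qb. The part of length in the order of levels was not tested. Of the 21 annotated introns of Csf1r 20 were crossed, with 3 to 286 reads each and 1551 in all. The intron missing from the list is the first of transcript Csf1r-201. The deposited isoform percent, a transcript's share of its gene's TPM, gave Csf1r-202 95.8% and 93.9%. Csf1r overlaps Hmgxb3 on the other strand and Mir6983 on its own.

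The summed C1q TPM was 148 and 270.0 (209 ± 86.1). Divided by that of Csf1r it was 21.1 and 18.7. The sum hides differences among the chains. By scaled counts C1qa (2.34-fold, 2.19 to 2.49) differed about as much as Csf1r (2.30-fold, 2.15 to 2.47). The interval of C1qb (1.94 to 2.23) overlaps that of Csf1r, and that of C1qc (1.70 to 1.86) lies below it. Of the 6 other genes, Csf1r gave the ratio with the smallest relative move. The ratio to Adgre1 was 90.4 and 116, to Lyz2 6.07 and 7.76, to Itgax 85.7 and 57.9, and to Cd68 7.58 and 11.9. The ratio to Cx3cr1 moved most, from 42.6 to 117.

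Cx3cr1, the receptor for fractalkine that marks gut macrophages reaching between epithelial cells (ENSMUSG00000052336.6, chr9:119901616-120069879, minus strand), went the other way. It was at 3.48 TPM in replicate 1 and 2.31 in replicate 2 (2.90 ± 0.827), from 422 and 272 counts. It was 1.33-fold higher in replicate 1 (1.14 to 1.55, adjusted p = 4.28e-04 by the exact binomial test) and not called. Its annotated span overlaps 9 other genes, through a distant exon of 12 bases in transcript Cx3cr1-202. That transcript held 100% and 94.6% of the gene's TPM.

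Adgre1 encodes F4/80, the classical surface antigen of mouse macrophages (ENSMUSG00000004730.10, chr17:57358691-57483527, plus strand). It had the lowest mean level of the 9 genes, at 1.64 and 2.33 TPM (1.98 ± 0.488), from 205 and 280 counts. The difference of 1.59-fold (1.33 to 1.92, adjusted p = 7.96e-07) was not called. Reads crossed 16 of its 22 annotated introns, 350 in all and 2 to 73 each. Adgre1-202 was given all of its TPM by the main estimate, and 94.4% and 84.3% by the posterior mean.

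Itgax encodes the integrin CD11c, which dendritic cells and many gut macrophages carry (ENSMUSG00000030789.8, chr7:128129547-128150657, plus strand). It was at 1.73 and 4.66 TPM (3.2 ± 2.07), from 273 and 707 counts. Of the 9 genes it differed most between the libraries, at 3.02-fold (2.62 to 3.49, adjusted p = 3.71e-60), and 7.34% of all genes tested differed by more. Reads crossed 24 of its 29 annotated introns, 578 in all. Beside Itgax, 3 of the 8 dendritic cell genes tested were called higher in replicate 2, against 11.5% of all genes tested. They were Batf3 (5.11 and 11.5 TPM), Itgae (3.36 and 6.29 TPM) and Ccr7 (0.37 and 2.29 TPM). The other 5 were not called, Irf4 (2.46 and 1.62 TPM) among them. The list's summed TPM was 13.8 and 23.6, while its median log2 ratio was 0.03, and −0.14 with library sizes from total counts or spike-ins. Of the 10 genes listed, 6 were below 1 TPM in both libraries: Zbtb46, Clec10a, Flt3, Xcr1, Cd209a and Clec9a, named after their values were seen. At 1 TPM or more in both were 3, Batf3, Itgae and Irf4. All 5 T cell genes tested were called higher in replicate 2 as well. The part of dendritic cells or of T cells in the differences of Itgax and of these genes was not tested. The order of Itgax, Cx3cr1 and Adgre1 among themselves differed between the libraries.

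**Figure D3:**
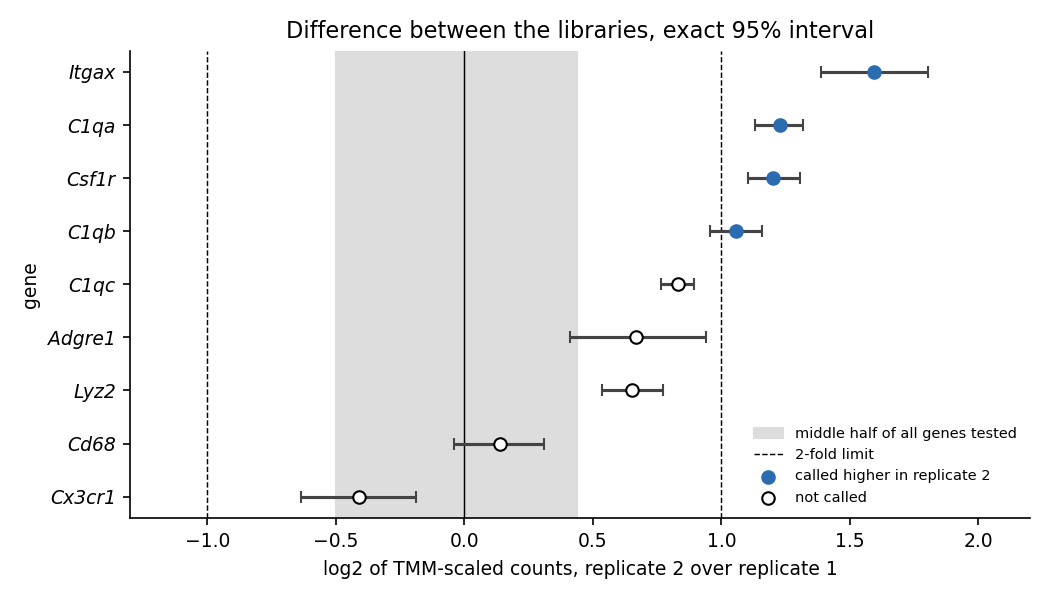
Log2 of the TMM-scaled counts of each gene, replicate 2 over replicate 1, with exact 95% intervals for counting error; filled points were called, the dashed lines are the 2-fold limits and the grey band spans the quartiles of all genes tested. Itgax (3.02-fold), C1qa, Csf1r and C1qb lie past the limit, and Cd68 and Cx3cr1 lie inside the band.

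Cd68 encodes macrosialin, a heavily glycosylated protein of macrophage lysosomes (ENSMUSG00000018774.9, chr11:69664213-69666153, minus strand). It was at 19.6 and 22.6 TPM (21.1 ± 2.16), with 533 and 502 counts, so the level per length was higher in replicate 2 and the count lower. The scaled counts differed 1.10-fold, with an interval from 0.971 to 1.24 (adjusted p = 0.165 by the exact binomial test). The log2 ratio was 0.13, and −0.10 with library sizes from total counts or spike-ins. Of the 9 genes Cd68 had the smallest difference.

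The split of Cd68 among transcripts bears on that level. The deposited isoform percent gave Cd68-203, a processed transcript of 612 bases with no annotated protein, 60.7% and 73.8%. It gave Cd68-201, which encodes the protein, 39.3% and 26.2%, and the coding Cd68-202 0 in both. Cd68-203 lacks exon 2 of Cd68-201 (chr11:69665503-69665936, 434 bases) and joins its neighbours across an intron of 653 bases. That junction is not in the deposited junction list. The introns on either side of exon 2 are there, with 23 and 5 reads over both libraries. Downstream introns, shared by all 3 transcripts, had 11, 44 and 317. Reads thus lay mostly toward the 3′ end, and the few that bear on exon 2 all included it. Cd68 was not alone in this lean. The most crossed intron lay at or near the 3′ end in Csf1r (286 reads), Itgax (145), Adgre1 (73) and Lyz2 (2025) too. In C1qa it was the second of 2 (158), and in C1qb and C1qc it was the first (326 and 1570). The part of this lean in the isoform percent was not tested. The percent is an estimate of the authors' quantifier, and the TPM of Cd68 rests on it through the transcript length. The list sums both libraries and covers another build, so introns were matched by length.

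**Figure D4:**
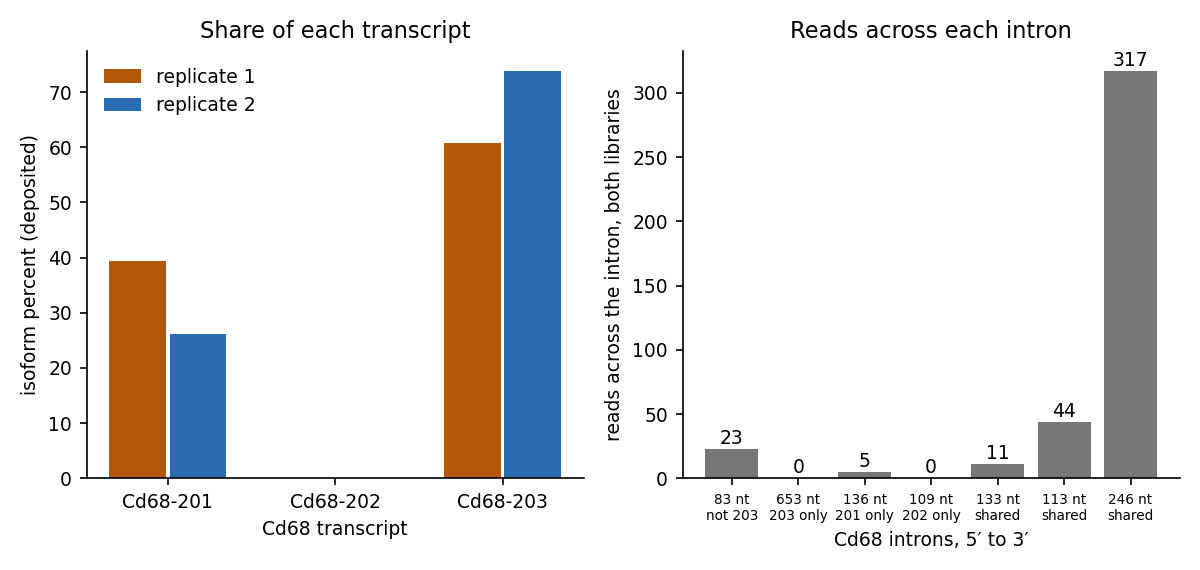
Left, deposited isoform percent of the 3 Cd68 transcripts in each replicate. Right, reads across each Cd68 intron over both libraries, in 5′ to 3′ order, with the transcripts that use it; Cd68-203 leads the percent (60.7 and 73.8), while the 653-nt intron that only it uses is not in the list (0).

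Lyz2 encodes the lysozyme of macrophages, which cleaves bacterial cell walls, and its neighbour Lyz1 encodes that of Paneth cells in the intestinal crypts. Lyz2 (ENSMUSG00000069516.7) lies at chr10:117277331-117282321 on the minus strand, 5.47 kb from Lyz1. Their coding sequences of 447 bases differ at 22 positions (95.1% identity). A stretch where they differ often and one where they do not are shown, because they bear on which single reads can be told apart. Reads came in pairs, and the mate of a read may lie outside a shared stretch. Bases are counted from the first base of the coding sequence in GENCODE M21, and capitals mark the 12 differences between Lyz2 and Lyz1 in bases 61 to 135. The third stretch, bases 276 to 393, is 118 bases long, identical in both genes and longer than a read of 76.
Lyz2: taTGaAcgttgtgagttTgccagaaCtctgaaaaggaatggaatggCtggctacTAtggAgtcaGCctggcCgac
Lyz1: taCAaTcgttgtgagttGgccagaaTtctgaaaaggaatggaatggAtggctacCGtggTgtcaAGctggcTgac
Lyz2 and Lyz1 shared: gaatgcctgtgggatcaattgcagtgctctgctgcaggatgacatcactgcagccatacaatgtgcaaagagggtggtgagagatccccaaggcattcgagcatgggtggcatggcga
Of the 1241 stretches of read length in the Lyz2 transcript, 72 (5.80%) also occur in Lyz1.

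Lyz2 was at 24.4 and 34.8 TPM (29.6 ± 7.35), from 1076 and 1452 counts. It was 1.57-fold higher in replicate 2 (1.45 to 1.71, adjusted p = 2.85e-29) and not called. Lyz1 was far higher, at 548 and 1428 TPM, which was 22.5 and 41.0 times Lyz2. Lyz2 thus made up 4.26% and 2.38% of the pair. Fragments that fit both genes, from the stretch shown or from elsewhere, were divided between them by the authors' quantifier. It gave the Lyz2 count a posterior SD of 0.33 and 0.27 counts. With Lyz1 and Lyz2 summed the log2 ratio was 1.5, against 0.64 for Lyz2 alone. Of 5 Paneth cell genes, Lyz1 among them, 4 were called higher in replicate 2 (background 11.5%), with a median log2 ratio of 1.52. The part of Paneth cell RNA in the Lyz2 counts was not tested beyond these values.

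Ordered by mean TPM the genes ran C1qc, C1qa, C1qb, Lyz2, Cd68, Csf1r, Itgax, Cx3cr1 and Adgre1. The ranges over the libraries did not overlap between Lyz2 and Cd68, Cd68 and Csf1r, or Csf1r and Itgax. All other neighbours overlapped.

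The label was checked against 30 other genes known in macrophages, of which 28 were tested. In both libraries 18 of the 30 were at 1 TPM or more, and 11 were below 1 TPM in both. Of the 28, 10 were called higher in replicate 2 (background 11.5%) and 3 higher in replicate 1 (background 14.6%), while 15 were not called. Their median log2 ratio was 0.56, and the summed levels of the 30 were 387 and 771 TPM. Among the highest were Irf8, a transcription factor of the myeloid lineage (47.9 and 95.9 TPM), and Tyrobp, a signalling adaptor of myeloid receptors (37.5 and 100.2 TPM). Both were called higher in replicate 2, though the shift of −0.24 with total or spike-in counts would take Irf8 (2.16-fold) below the limit. Laptm5, a lysosomal membrane protein of blood cells, was next after Tyrobp, at 34.6 and 59.1 TPM, and was not called.

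The smallest ratio in that list was that of Cd209f, a lectin receptor, with 22.5 counts in replicate 1 and 0 in replicate 2. Against a floor of 3 counts in replicate 2 it was at least 6.57-fold higher in replicate 1, and its exact 95% interval, which also covers the counting error of replicate 1, begins at 4.93-fold. Several well known markers, named after their values were seen, were near 0. Aif1, which encodes IBA1, had 1 and 8 counts, and the mannose receptor Mrc1 had 35 and 11. The scavenger receptor Cd163 had 31 and 20, and Cybb, a subunit of the phagocyte oxidase, had 45 and 31. Mrc1 was called higher in replicate 1, as were Cd209f and Trem2 (31 and 5 counts), the last also named after its values were seen. The macrophage label therefore rested on C1q, Csf1r, Cd68 and the genes above 1 TPM, and not on every marker.

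**Figure D5:**
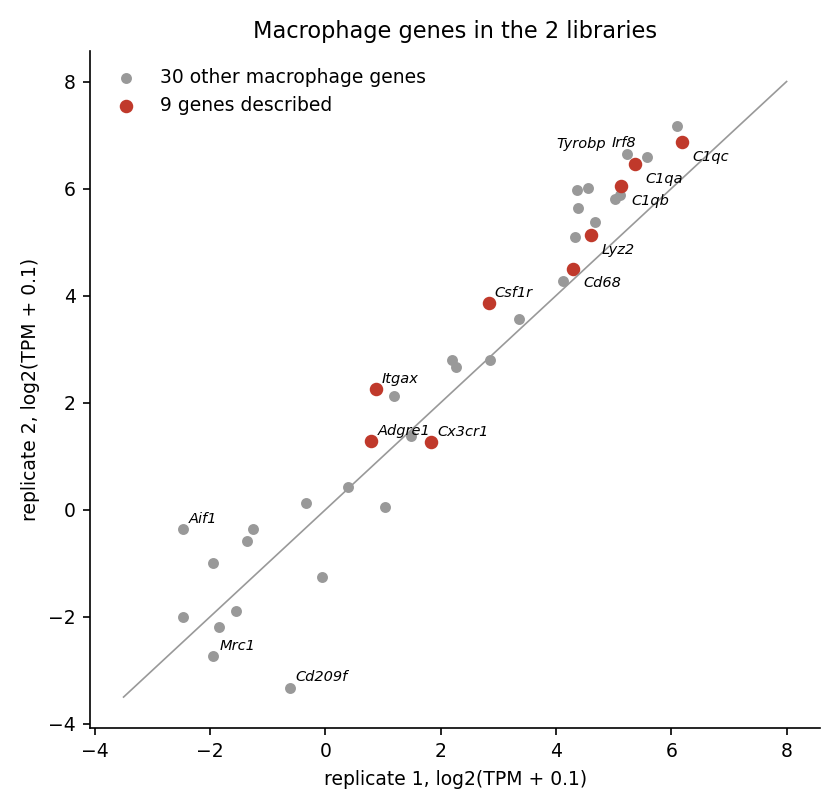
Level of the 9 genes (red) and of 30 other macrophage genes (grey) in replicate 1 against replicate 2, as log2(TPM + 0.1); the line marks equal levels. The C1q chains sit among the highest genes, beside Irf8 and Tyrobp, while Aif1, Mrc1 and Cd209f lie below 1 TPM in both libraries.

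Of 6 genes for ligands of these receptors and for the related GM-CSF system, 5 were tested. None was called in either direction (backgrounds 11.5% and 14.6%, median log2 ratio 0.57). Cx3cl1, which encodes fractalkine, the ligand of CX3CR1, was at 68.1 and 109.6 TPM, well above its receptor's level in both libraries. It was 1.80-fold higher in replicate 2 (1.76 to 1.85), where the receptor was the lower. Il34 was at 17.2 and 24.2 TPM (1.5-fold, 1.34 to 1.67) and Csf1 at 8.22 and 8.01 TPM (1.04-fold, 0.944 to 1.14). Il34, Csf1 and Csf1r thus lay between 7.02 and 24.2 TPM. Csf2ra, a chain of the GM-CSF receptor, was at 41.2 and 44.5 TPM. Csf2, its ligand, had 9 and 7 counts and was not tested.

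Downstream of C1q, the complement cascade was present in part. Of 22 genes, 15 were tested, with a median log2 ratio of 0.32. Called higher in replicate 2 were 5 (background 11.5%) and higher in replicate 1 was 1 (background 14.6%), while 9 were not called. The proteases of the C1 complex were detected, C1ra at 8.67 and 5.23 TPM (not called) and C1s1 at 5.22 and 7.97 TPM (not called), both chosen after their values were seen. By scaled counts both were lower in replicate 2, with log2 ratios of −0.55 and −0.33, where C1qa, C1qb and C1qc were higher. Each of C1ra, C1s1 and C4b has a close copy with which fragments may be shared. C1rb was given 2.04 and 0 counts, C1s2 0 and 0, and C4a 59.3 and 53.2. C4b, which C1s cleaves, was at 19.4 and 12 TPM and was not called. C3, on which the complement pathways converge, was at 15.4 and 6.95 TPM, 1.97-fold higher in replicate 1 (1.85 to 2.10), just short of the limit. The shift of −0.24 with total or spike-in counts would take C3 past the limit. Its log2 ratio of −0.97 was the lowest of the list together with that of Masp1, a lectin pathway protease with 39 and 7 counts, which was called.

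Of the alternative pathway, Cfd, factor D, which fat cells secrete, had the largest log2 ratio of the list, 5.26, with 263 and 9406 counts (41.7-fold, 36.9 to 47.3). Of 5 fat cell genes all 5 were called higher in replicate 2 (background 11.5%), with a median log2 ratio of 1.89. Their part in the Cfd difference was not tested. Cfb, factor B, was at 15.6 and 43.9 TPM (2.85-fold, 2.67 to 3.03) and was called, while Cfp, properdin, was at 8.78 and 9.01 TPM and was not. The other genes called higher in replicate 2 were C2, Mbl2 and C8g. C2, which C1s cleaves, had 312 and 573 counts, and its scaled counts differed 2.14-fold. The interval of 1.86 to 2.47 includes the limit, and its TPM of 4.86 and 6.13 differed less. Mbl2, a mannose-binding lectin, was counted 2 and 134 times, so its scaled counts differed 78.2-fold, imprecisely (21.2 to 652), and its log2 ratio with the pseudocount was 2.79. At the end of the cascade, C8g had 122 and 265 counts (2.53-fold, 2.04 to 3.17), C6 had 56 and 65 and C7 had 13 and 10. Hc, which encodes C5, had 2 and 0 counts, C8b had 4 and 2, and C9 and C8a had 0 in both libraries, as did Mbl1. Of the genes in this paragraph, all but Cfd and Cfb were named after their values were seen.

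Of 14 complement regulators and receptors, 11 were tested, none was called higher in replicate 2 (background 11.5%), 3 were called higher in replicate 1 (background 14.6%) and 8 were not called. C1qbp, a mostly mitochondrial protein first isolated as a C1q binder, was at 315 and 368 TPM, Calr, calreticulin, at 97.9 and 101 TPM, and Serping1, the inhibitor of C1r and C1s, at 94.6 and 82.2 TPM. None of these 3 was called. Serping1 thus stood above both proteases it inhibits. Cr1l, the Crry regulator, was at 20.2 and 10.8 TPM. Cfi, which degrades C3b and C4b, had the smallest log2 ratio, at −1.94 (291 and 50 counts, 4.99-fold higher in replicate 1, 3.69 to 6.88). C5ar1, the receptor for C5a, had the largest, at 0.66 (2.01 and 2.97 TPM, not called).

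Markers of other cells differed between the libraries too, and their part in the results above was not tested. The background for the counts in this and the next paragraph is 11.5% of all genes tested for replicate 2. For replicate 1 it is 14.6%. Of 5 T cell genes all 5 were called higher in replicate 2 (median log2 ratio 1.05, summed TPM 8.59 and 23.2). Of 4 genes shared by leukocytes 1 was, Coro1a, at 58.8 and 119 TPM (median 0.68). Of 4 B and plasma cell genes 1 was (median 0.60). Of 3 monocyte genes tested 1 was called in each direction (median −0.29), and the monocyte receptor Ccr2 had 10 and 8 counts. Of 9 neutrophil genes 5 had 0 counts in both libraries, among them S100a8 and S100a9, and of the 2 tested 1 was called higher in replicate 2 (median 0.36). Mast cell genes went the other way, with 3 of 4 called higher in replicate 1 (median −0.94).

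Among the non-immune cells, 2 of 6 epithelial genes were called higher in replicate 2 (median 0.88, summed TPM 2003 and 3649), and all 5 red blood cell genes were (median 1.81). None of 4 endothelial genes (median −0.02) or of 5 fibroblast genes (median −0.49) was called in either direction. Of 4 smooth muscle genes 2 were called higher in replicate 1 (median −0.73), as were 2 of 4 glial genes (median −0.78). All 12 acinar pancreas genes (median −8.87) and all 9 genes of stomach and Brunner's glands (median −7.83) were called higher in replicate 1. The median of the 9 macrophage and C1q genes, 0.83, was thus near that of the epithelial genes, and below that of the T cell genes.

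By level in the 2 libraries, the protein-coding genes most like C1qa were Sertad1 (40.2 and 87.8 TPM), Kctd5 (42.5 and 85.2 TPM) and Cpne2 (41.0 and 91.6 TPM). Likeness was the Euclidean distance of log2(TPM + 1) over the 2 libraries, and the distances were 0.032, 0.061 and 0.0633. Of 21465 genes compared, 40 lay within 0.25.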

How the data were processed

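Per the files' notes and the labels, stranded read pairs of 76 bases were placed on mm10 and assigned to GENCODE M4 transcripts. The sources used here do not name the aligner or quantifier. Expected counts, as deposited, estimate fragments of each gene and transcript, with shared fragments divided by the authors' quantifier and no normalisation. Deposited TPM and FPKM were scaled by the authors to length and depth, per the file headers. Deposited percent values are isoform shares. Deposited signal columns are bounds on TPM and posterior SDs. Deposited junction counts are reads per junction, summed by the authors over both libraries in mm9. Each of the 347142 junctions has reads equal to its R1 plus R2, which were not assigned to replicates. Introns of a gene were matched to that list by chains of intron and exon lengths on the same chromosome and strand. No coordinates were converted, and Cx3cr1, with 1 of 2 introns matched, was not used.

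Expected counts were rounded. Library sizes came from TMM (edgeR 4.0.16 with limma 3.58.1, in R 4.3.3), using genes whose counts averaged 10 or more, with spike-ins (1.35% and 1.36% of counts) left out. With 1 group there was no test between conditions. Each gene had an exact two-sided binomial test, Benjamini-Hochberg adjustment over all genes tested, and a limit of 2-fold. Log2 ratios used CPM plus 0.5. Exact 95% Clopper-Pearson intervals cover counting error only, since reads carry no molecular identifiers. The test was tested on simulated counts that held counting error only. That setting does not cover the wider spread between these libraries. The common biological coefficient of variation was 0.529. Alternatives were total, spike-in and DESeq2 1.42.0 size factors, no filter, other pseudocounts, TPM, FPKM, posterior means, a 1.5-fold limit, summed lysozymes and each library alone. Positions and symbols (42462 of 43346 rows; genes without one held 0.0954% and 0.0823% of counts) came from GENCODE M21, and promoters from RefSeq. Python 3.11.15 with scipy 1.17.1 was used.

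The genes and lists were chosen with earlier results of these data known. The text names all 9 genes, the 4 genes of highest mean TPM of a list where it gives examples, the largest and smallest log2 ratio of the macrophage and complement lists, and the 3 genes most like C1qa; others are marked. Some genes that this rule names are not reported here.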

Additional observations from a re-analysis of the deposited data

How the results depend on the processing

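The count of the 9 genes called higher in replicate 2 was 4, and it was 1 with library sizes from total gene counts, 1 with spike-in counts and 7 with a 1.5-fold limit. Over the 15921 genes tested the calls higher in replicate 2 were 1830, and under those settings 1263, 1257 and 3374 in that order. The 1.5-fold limit gave 3838 calls higher in replicate 1. With total counts the log2 ratios fell to 0.98 for C1qa, 0.81 for C1qb and 0.96 for Csf1r, and with spike-ins to 0.97, 0.80 and 0.95, all short of 2-fold. From TPM without the listed 12 pancreas and 9 stomach and Brunner's gland genes they were 0.92, 0.75 and 0.84. From TPM as deposited C1qb was 0.91. Cd68 turned to −0.10 with total counts and to −0.10 with spike-ins, and it was not called under either. Lyz2 was 1.5 with Lyz1 summed in. Total and spike-in scaling move all log2 ratios alike. Calls within the other lists were counted with TMM library sizes only. The leukocyte median was 0.12 from TPM without those organ genes, and posterior means gave Cx3cr1-202 93.2% and Adgre1-202 89.3% on average over the libraries. A further 138 values that answer a comparison and 152 others counted as kept. For single genes this meant the same direction and call. For counts of calls it meant a change of at most 1.5-fold, such as 1830 to 1263 with total counts. For list medians it meant a move below the SD across the list's genes, such as 0.83 to 0.52 for the 9 genes. Values from each library alone always lie within the SD of 2 libraries, so they could not fail. Leaving out either library leaves the other library's value, as given in the text. No paired analysis was possible because there is 1 group. With 2 libraries, counting error is small beside the difference between libraries, and the spread between animals is not measured.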
